A study of Rattus norvegicus with 18 samples.

Results

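Genes of glucose uptake, glycolysis and the hypoxia response were followed through 4NQO-induced tongue carcinogenesis in the epithelia and in the submucosal fibroblasts of the rat. The group held 37 genes, and 35 of them had a probe set on the array that the annotation assigned to that gene alone, out of 14217 genes so measured. Where a gene had several probe sets (14 genes), the one with the highest mean log2 signal over the 18 arrays stood for it. The 2 genes without such a probe set, Gapdh and Pkm, were read from probe sets shared with a second gene symbol and are given apart. All animals were male Sprague Dawley rats. The normal groups drank distilled water, and the dysplasia and squamous cell carcinoma (SCC) groups drank water with 0.002% 4NQO (4-nitroquinoline 1-oxide, a DNA-damaging carcinogen) and had their tongue lesions taken between weeks 14 and 22. Each of the 6 groups (normal, dysplasia and SCC, in epithelia and in fibroblasts) had 3 samples, each pooled from 3 rats. The epithelial sheet was lifted off with dispase, and the fibroblasts were the cells that adhered within a short plating of the collagenase-digested tissue beneath it. The study reported both cell types as pure, with staining for E-cadherin, pan keratin and vimentin. The labels do not say how the pools relate to each other, and p-values measure the spread between these samples.

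Glucose enters the cell through GLUT transporters, is trapped by hexokinase, committed at the phosphofructokinase step and turned into pyruvate, and lactate dehydrogenase with the monocarboxylate transporters lets lactate leave the cell. When oxygen is short, the prolyl hydroxylases no longer mark the HIF alpha subunits for destruction, and HIF binds hypoxia response elements near many of these genes and near genes of vessel growth, mitophagy and collagen cross-linking. Tumours often keep this program on, and the hydroxylase gene Egln3 is itself a HIF target, which makes it a common readout of HIF activity.

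Signals are log2 values of the deposited probe set intensities, and array medians lay between 6.53 and 6.86. Epithelial markers (mean of 14 genes) lay at 12.86 to 13.11 in the epithelia. In the fibroblast samples they were also high, at 10.57 to 12.64, beside fibroblast markers (16 genes) at 11.48 to 12.94, so markers of both cell types were measured there. The third fibroblast sample of each stage stood apart from the other two: in normal tissue its epithelial markers were at 10.57 against 12.23 and 12.25, and its macrophage markers (18 genes) at 8.70 against 11.24 and 10.92. In dysplasia and SCC the third samples were also the lowest in epithelial markers (11.91 and 11.81) but the highest in macrophage markers (10.35 and 11.32). Neutrophil markers (10 genes) in fibroblasts were at 7.56 to 8.07 in normal tissue, 8.55 to 8.71 in dysplasia and 10.11 to 10.28 in SCC. Fibroblast markers in the 3 SCC epithelia were at 9.40, 11.45 and 7.28, against at most 7.85 in the other epithelia. In these bulk samples fewer cells of a type and less RNA per cell cannot be told apart.

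In the epithelia, the transporter genes Slc2a1, Slc16a1 and Slc16a3 (3 of 4) and Hk2 rose from normal tissue to dysplasia and to SCC, while Egln3, Pfkfb4, Aldoc and Bnip3 fell at both stages. From normal to dysplastic epithelia 4 of 35 genes rose and 5 fell (limma, Benjamini-Hochberg adjusted p under 0.05), that is 9 of 35 beside 14.5% of all 31042 probe sets (7% higher, 7.54% lower). From normal to SCC epithelia 9 rose and 6 fell, 15 of 35 beside 29.9% of all probe sets (12.6% higher, 17.3% lower). The median change over the 35 genes was -0.04 in dysplasia and 0.17 in SCC on the log2 scale, beside -0.06 and -0.09 over all probe sets. Quantile normalization changed the numbers higher and lower to 4 and 3 in dysplasia and to 11 and 4 in SCC. In dysplasia the count was 4, 5 and 5 without normal samples 1, 2 and 3, and 3, 6 and 2 without dysplasia samples 1, 2 and 3. Other measures moved with the stage in the epithelia. Proliferation markers (9 genes) were higher for 8 of 9 in dysplasia (median change 1.06) and for 8 of 9 in SCC (1.13). Macrophage markers were higher for 13 of 18 in SCC, at 6.12 to 6.14 in normal tissue and 7.08 to 9.27 in SCC. The mean of the neutrophil markers was 5.79 to 5.88 in normal tissue, 6.37 to 6.54 in dysplasia and 7.05 to 8.03 in SCC. From normal tissue 4 of 10 were higher in SCC. In dysplasia 2 of 10 were higher and 1 lower, with a median change of -0.05, so the mean there does not stand for the list. Its member S100a9 was at 5.30 to 6.45 in normal tissue and 10.18 to 11.07 in dysplasia, and Csf3r at 5.06 to 5.46 and 4.51 to 5.30. The Gapdh control probe sets of the 3' and 5' ends, a sign of RNA integrity, differed by 0.02 to 0.08 on the log2 scale in normal tissue, 0.14 to 0.17 in dysplasia and 0.18 to 0.24 in SCC. Those of beta-actin did not follow this order. They differed by 1.65 to 1.87 in normal tissue, 1.56 to 1.66 in dysplasia and 1.42 to 1.98 in SCC. The part of these in the changes was not tested. Between dysplastic and SCC epithelia no gene of the group was called, beside 0.0258% of all probe sets (8 called, 4402 at an unadjusted p under 0.05). The groups did not overlap for 11 of the 35 genes there, beside 18.3% of all probe sets.

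In the fibroblasts, with all samples in the fit, the same 3 of 4 transporter genes, Tpi1, Eno1 and Ldha (3 of 8 genes from aldolase to lactate), Egln3 and Ddit4 were among those that rose in SCC, and no gene was called in dysplasia. From normal to SCC fibroblasts 11 of 35 genes rose and 1 fell, 12 of 35 beside 15.2% of all probe sets, with 7.82% higher and 7.43% lower. The median change was 0.29 on the log2 scale beside -0.05 over all probe sets. From normal to dysplastic fibroblasts none was called, beside 0.171% of all probe sets (53 called, 5600 at an unadjusted p under 0.05). When the third fibroblast samples, which stood apart, were left out, a choice made after seeing the data, 10 of 35 were called from normal to dysplasia (3 higher, 7 lower) beside 26.5% of all probe sets, and 21 of 35 from normal to SCC (16 higher, 5 lower) beside 42.3%. All 12 genes called with every sample were among those 21. Only samples 1 and 2 of each fibroblast group are then in the fit. They correlated with each other at 0.992 to 0.994, and with sample 3 at 0.961 to 0.976. Lower adjusted p values without the third samples, here and for single genes below, are therefore not read as stronger evidence. Leaving out single SCC fibroblast samples moved the count for SCC against normal to 2 without sample 1, to 3 without sample 2 and to 14 without sample 3. Neutrophil markers rose in the same comparison (9 of 10 called). Proliferation markers were at 9.32 to 9.51 in normal tissue and 9.87 to 10.31 in SCC (1 of 9 called, higher). The median change was 0.63 for epithelial markers (1 of 14 called, higher) and -0.63 for fibroblast markers (2 of 16 called, lower). The beta-actin probe sets of the 3' and 5' ends differed by 1.14 to 1.26 on the log2 scale in SCC fibroblasts. In all other samples they differed by 1.42 to 2.02. Those of Gapdh differed by 0.28 to 0.41 in normal, 0.21 to 0.30 in dysplastic and 0.05 to 0.18 in SCC fibroblasts. The part of these measures in the changes was not tested.

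From normal to SCC, 7 of 35 genes were called in both cell types, which were fitted on separate arrays, beside 5.99% of all probe sets. The 7 were 46.7% of the 15 called in epithelia and 58.3% of the 12 called in fibroblasts. Over all probe sets, 1859 were called in both, out of 9267 called in epithelia and 4733 in fibroblasts. Slc2a1, Slc16a1, Slc16a3 and Eno1 rose in both (4 of 35, beside 3.08% of all probe sets), Pfkm fell in both (1 of 35, beside 1.91%), and Egln3 and Pfkfb4 fell in the epithelia and rose in the fibroblasts (2 of 35, beside 0.573%). In all, 21 of the 35 genes were called in at least 1 of the 6 comparisons of stages, and 14 in none, beside 40.6% of all probe sets called in at least 1. Aligning the arrays on 18 hybridization controls in place of the deposited scale moved the median of all probe sets by 0.61 for SCC against normal fibroblasts, 0.72 for SCC against dysplastic fibroblasts, 0.15 for dysplastic against normal epithelia and -0.11 for dysplastic against normal fibroblasts. The changes given here are relative to the deposited scale, and of the calls between stages only that of Pfkm in fibroblasts changed sign under that alignment. By another rule, a change of 2-fold or more with a limma p under 0.05 before adjustment, 5 of 35 genes passed in dysplastic against normal epithelia (3.48% of all probe sets), 8 in SCC against normal epithelia (8.9%) and 4 in SCC against dysplastic epithelia (2.08%). In fibroblasts 7 passed in SCC against normal tissue (7.36%) and 5 in SCC against dysplasia (2.75%).

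**Figure D1:**
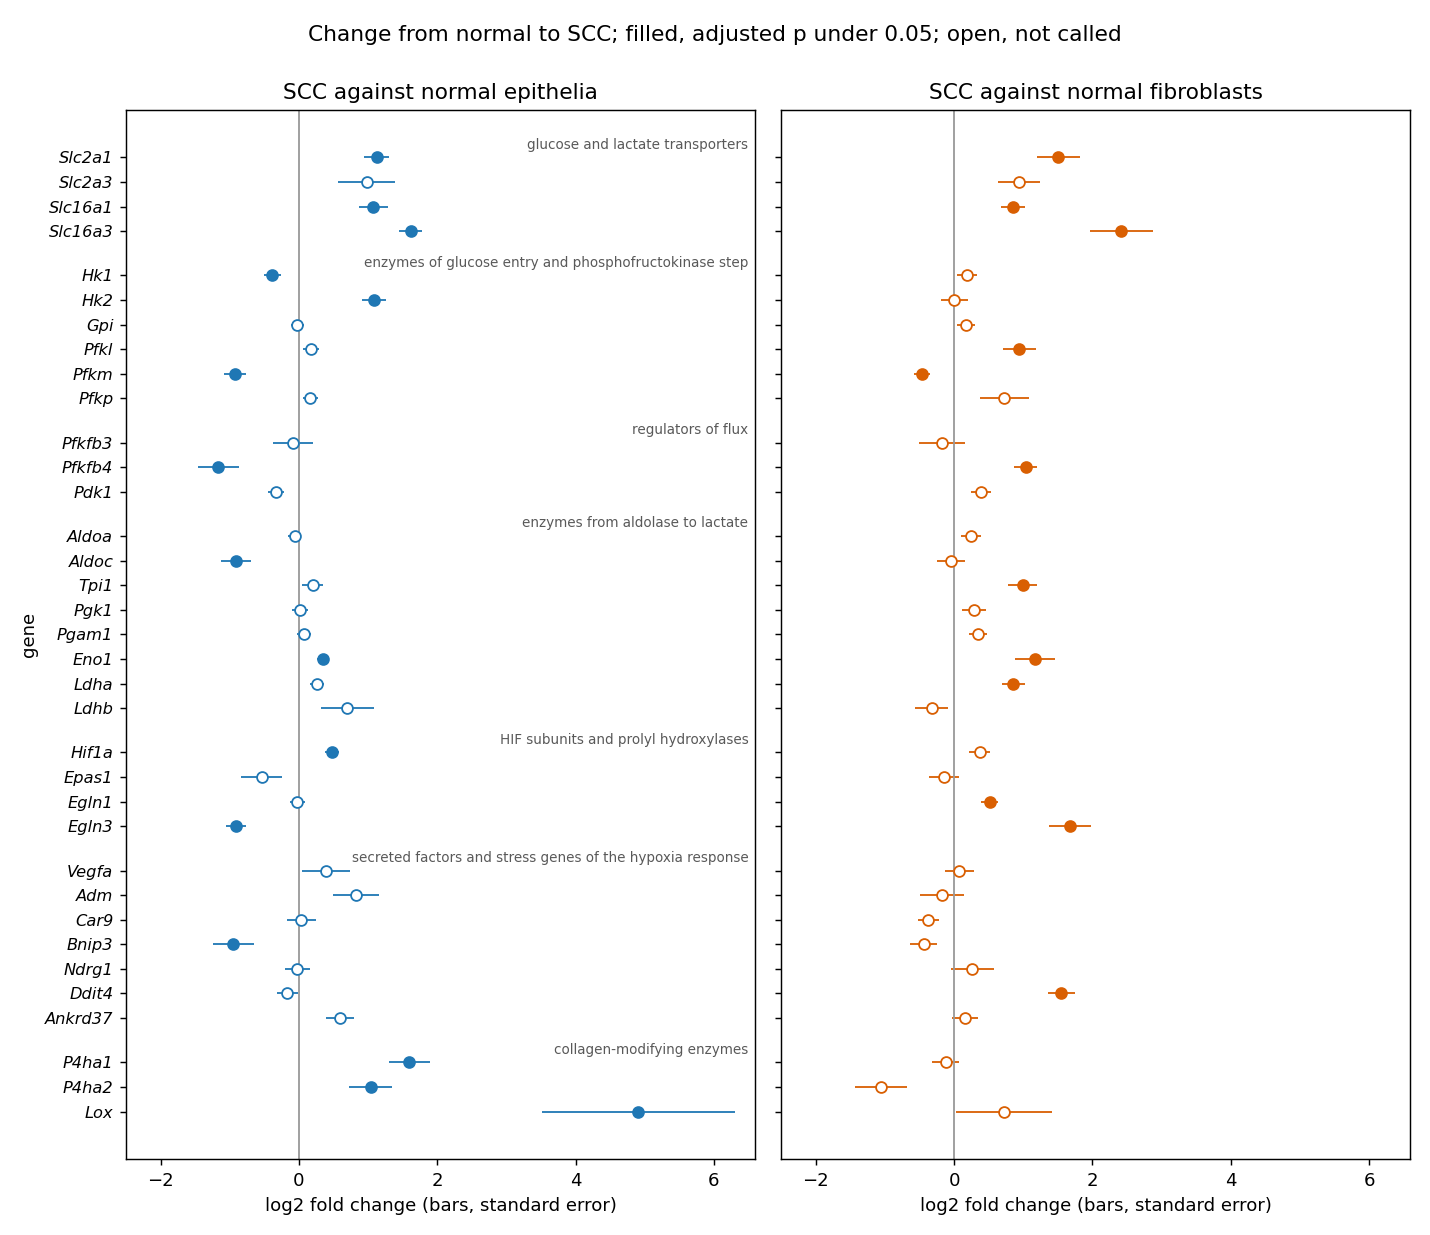
Log2 fold change from normal tissue to SCC (x axis) for the 35 genes by role (y axis), in epithelia on the left and fibroblasts on the right, with the standard error as bars and filled points for an adjusted p under 0.05. Transporters lie to the right of 0 in both panels, and Egln3 (-0.91 and 1.68) and Pfkfb4 (-1.16 and 1.03) lie on opposite sides.

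Of the 4 transporter genes, 3 rose in SCC of both cell types. Slc2a1, which encodes GLUT1, the basal glucose transporter, had log2 signals of 10.81, 10.51 and 10.66 in normal epithelia, 11.64, 11.30 and 11.75 in dysplasia and 12.09, 11.52 and 11.74 in SCC. Neither lesion group overlapped with normal epithelia, and dysplasia and SCC overlapped with each other. Slc2a1 rose 1.87-fold (log2 change 0.90, SE 0.18, adjusted p = 0.0133) in dysplasia and 2.18-fold (log2 change 1.12, SE 0.18, adjusted p = 0.00234) in SCC. In fibroblasts it lay at 11.16, 10.91 and 9.87 in normal tissue, 11.66, 11.61 and 11.08 in dysplasia and 12.17, 11.99 and 12.31 in SCC, where normal sample 3 was by far the lowest. It rose 2.85-fold (log2 change 1.51, SE 0.31, adjusted p = 0.0179) from normal to SCC fibroblasts, and without the third fibroblast samples the log2 change was 1.05 (adjusted p = 0.00181).

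Slc16a3 encodes MCT4, which exports lactate from glycolytic cells. Its signals in epithelia were 7.09, 6.86 and 7.05 in normal tissue, 7.75, 7.38 and 7.65 in dysplasia and 8.93, 8.45 and 8.47 in SCC, with no overlap between any of the 3 stages. It rose 1.51-fold (log2 change 0.59, SE 0.16, adjusted p = 0.0413) in dysplasia and 3.06-fold (log2 change 1.62, SE 0.16, adjusted p = 0.000342) in SCC. In fibroblasts the signals were 8.92, 8.69 and 6.82 in normal tissue, 8.41, 8.40 and 8.31 in dysplasia and 10.57, 10.60 and 10.52 in SCC. The SCC samples were the highest and the closest to each other, and normal sample 3 was well under the other normal samples. Slc16a3 rose 5.35-fold (log2 change 2.42, SE 0.46, adjusted p = 0.0134) in SCC fibroblasts, and without the third samples by 1.77 (adjusted p = 0.000315) on the log2 scale.

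Slc16a1 encodes MCT1, a lactate transporter that works in both directions. It stood at 9.41, 8.77 and 9.21 in normal epithelia, 10.47, 9.91 and 10.31 in dysplasia and 10.14, 10.02 and 10.46 in SCC, so both lesion groups were above the normal group and overlapped with each other. Slc16a1 rose 2.15-fold (log2 change 1.11, SE 0.21, adjusted p = 0.0113) in dysplastic and 2.11-fold (log2 change 1.08, SE 0.21, adjusted p = 0.00554) in SCC epithelia. In fibroblasts it stood at 9.87, 9.64 and 9.53 in normal tissue, 9.98, 9.83 and 9.75 in dysplasia and 10.56, 10.25 and 10.79 in SCC, and it rose 1.81-fold (log2 change 0.85, SE 0.17, adjusted p = 0.0151) from normal to SCC. A second, dim probe set of Slc16a1 was not called, at -0.31 (adjusted p = 0.266), 0.13 (adjusted p = 0.6) and 0.36 (adjusted p = 0.434) in these comparisons. Slc2a3, the high-affinity glucose transporter GLUT3, was at 4.19, 4.49 and 4.38 in normal and 5.22, 6.39 and 4.40 in SCC epithelia and at 7.24, 7.63 and 8.63 in normal and 8.95, 8.79 and 8.58 in SCC fibroblasts. Its log2 changes to SCC, 0.98 (SE 0.41, adjusted p = 0.0998) and 0.94 (SE 0.31, adjusted p = 0.0686), were not called.

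The calls of Slc2a1, Slc16a1 and Slc16a3 in SCC epithelia held with each array left out. In dysplastic epithelia those of Slc2a1 and Slc16a1 were lost without dysplasia sample 3 (adjusted p = 0.0612 and 0.0525), and that of Slc16a3 without any single normal sample or dysplasia sample 1 or 3 (0.0851 to 0.134). In SCC fibroblasts Slc2a1 and Slc16a3 lost their call without SCC sample 1 or 2 (0.0599 to 0.0708 and 0.0561 to 0.0566), and Slc16a1 without normal sample 2 or SCC sample 1 (0.0542 to 0.067).

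**Figure D2:**
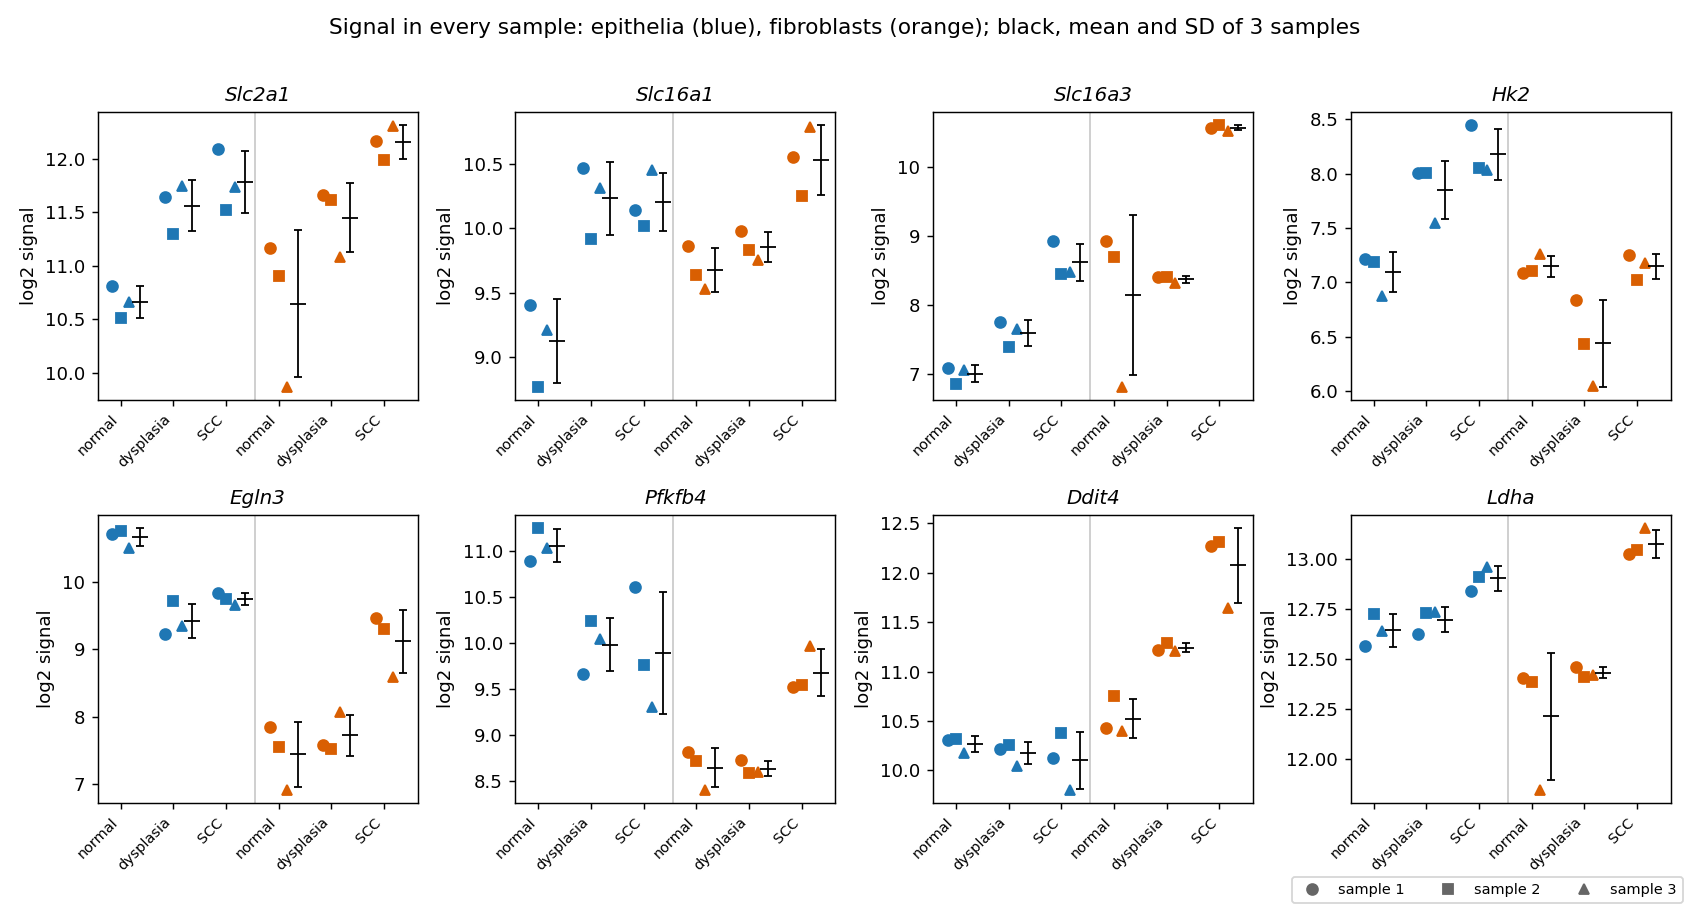
Log2 signal (y axis) of 8 genes in each of the 18 samples by stage (x axis), with epithelia in blue, fibroblasts in orange, symbols for the sample number and the mean with its SD in black. Slc2a1, Slc16a1 and Slc16a3 are higher in SCC of both cell types than in normal tissue, Egln3 and Pfkfb4 come down in epithelia and go up in fibroblasts, and normal fibroblast sample 3 is low for Slc2a1, Slc16a3, Egln3 and Ldha.

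The start regions of 33 of the 37 genes were in the RefSeq promoter table (GRCr8, 250 bases before to 50 after each start, 38 windows). They were searched on both strands for ACGTG and GCGTG, the core letters of the hypoxia response element, and a CACGTG counts once on each strand. ACGTG was found in 21 of the 38 windows (55.3%) and in 19.3% of all 33469 windows, and GCGTG in 18 of 38 (47.4%) and in 29.7% of all. Several of these genes are known HIF targets and entered the list for that reason. Both motifs hold a CG, and the shares were not matched for GC content. It ran from 44.7% (Egln3) to 84.7% (Egln1) in the windows of these genes. The difference from all windows is therefore not read as a result about these genes. The 250 bases before the start are shown for 4 genes whose windows hold several matches, the transporters Slc2a1 and Slc16a1 and the hypoxia response genes Ldha and Bnip3, and for Egln3, whose window holds none. Capitals mark each match on either strand.
Slc2a1, chr5:138002272-138002521, plus strand: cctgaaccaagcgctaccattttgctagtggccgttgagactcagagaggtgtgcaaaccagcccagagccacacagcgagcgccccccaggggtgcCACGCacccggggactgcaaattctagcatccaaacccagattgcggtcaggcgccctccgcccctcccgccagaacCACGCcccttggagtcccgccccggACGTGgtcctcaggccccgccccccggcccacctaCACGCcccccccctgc
Slc16a1, chr2:194812410-194812659, plus strand: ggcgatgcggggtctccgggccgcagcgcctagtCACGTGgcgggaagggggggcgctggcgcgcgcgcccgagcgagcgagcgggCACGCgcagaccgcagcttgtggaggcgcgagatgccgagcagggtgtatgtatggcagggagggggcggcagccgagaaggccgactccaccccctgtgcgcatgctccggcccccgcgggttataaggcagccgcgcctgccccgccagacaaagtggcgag
Ldha, chr1:106507842-106508091, plus strand: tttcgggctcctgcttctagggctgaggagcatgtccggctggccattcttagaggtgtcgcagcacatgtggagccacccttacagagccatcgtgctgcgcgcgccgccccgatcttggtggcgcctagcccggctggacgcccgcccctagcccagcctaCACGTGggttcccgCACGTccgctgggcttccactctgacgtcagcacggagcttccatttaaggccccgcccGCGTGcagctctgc
Bnip3, chr1:203154963-203155212, minus strand: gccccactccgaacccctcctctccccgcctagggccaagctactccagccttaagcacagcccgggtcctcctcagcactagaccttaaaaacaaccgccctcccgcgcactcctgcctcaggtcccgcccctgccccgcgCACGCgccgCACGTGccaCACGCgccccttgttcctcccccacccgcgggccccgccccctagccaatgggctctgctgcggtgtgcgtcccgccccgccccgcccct
Egln3, chr6:77411016-77411265, minus strand: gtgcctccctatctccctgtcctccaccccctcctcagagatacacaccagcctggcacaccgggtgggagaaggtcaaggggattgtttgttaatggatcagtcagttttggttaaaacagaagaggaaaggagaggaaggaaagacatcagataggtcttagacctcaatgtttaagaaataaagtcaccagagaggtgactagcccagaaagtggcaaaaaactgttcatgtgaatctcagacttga
Matches were present in genes that rose in SCC epithelia (Slc2a1, Slc16a1), in a gene that fell there (Bnip3) and in a gene that rose in SCC fibroblasts (Ldha). None was found in the windows of Slc16a3, Hk2, Pfkfb4, Egln3 and Tpi1, and elements outside these windows were not searched.

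At the first steps of glycolysis the isoenzymes moved in different directions. Hk2, the inducible hexokinase bound to mitochondria, was at 7.22, 7.18 and 6.88 in normal epithelia, 8.0, 8.01 and 7.54 in dysplasia and 8.44, 8.05 and 8.04 in SCC. Both lesion groups lay above all normal samples. Hk2 rose 1.69-fold (log2 change 0.76, SE 0.18, adjusted p = 0.0248) in dysplasia and 2.12-fold (log2 change 1.08, SE 0.18, adjusted p = 0.00272) in SCC. In fibroblasts it was at 7.08, 7.10 and 7.26 in normal tissue, 6.84, 6.43 and 6.04 in dysplasia and 7.25, 7.02 and 7.18 in SCC, and no change was called, with dysplasia the lowest group. Hk1, the widely expressed isoenzyme, was at 12.15, 12.23 and 12.07 in normal and 11.61, 11.69 and 11.99 in SCC epithelia and fell 1.31-fold (log2 change -0.39, SE 0.12, adjusted p = 0.042). Hk1 lost its call without any single normal or dysplasia sample and without SCC sample 1 or 2 (adjusted p = 0.0528 to 0.115), and its second probe set gave 0.20 (adjusted p = 0.429). Hk2 kept its call in SCC with each array left out, and lost it in dysplasia without any single normal sample or dysplasia sample 1 or 2 (0.0561 to 0.0792).

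Phosphofructokinase, the committed step, has a liver, a muscle and a platelet type subunit. Pfkm, the muscle type, was at 9.87, 9.37 and 9.92 in normal, 9.29, 9.19 and 9.31 in dysplastic and 8.61, 8.92 and 8.86 in SCC epithelia, with no overlap between SCC and either other group. It fell 1.89-fold (log2 change -0.92, SE 0.16, adjusted p = 0.00372) in SCC epithelia, and this held with each array left out. In fibroblasts Pfkm was at 9.45, 9.60 and 9.63 in normal tissue and 9.12, 8.98 and 9.18 in SCC and fell 1.38-fold (log2 change -0.47, SE 0.12, adjusted p = 0.032), but the change was 0.14 after alignment on the hybridization controls. Pfkl, the liver type, was at 7.20, 7.47 and 6.67 in normal and 8.24, 8.29 and 7.63 in SCC fibroblasts. The SCC samples were the highest, and Pfkl rose 1.93-fold (log2 change 0.95, SE 0.24, adjusted p = 0.0319). In epithelia its change to SCC was 0.18 (SE 0.11, adjusted p = 0.262). The fibroblast call of Pfkl was lost without normal sample 1 or 3, dysplasia sample 2 or SCC sample 1 or 2 (0.0511 to 0.12), and that of Pfkm without any single normal sample, dysplasia sample 1 or 2 or SCC sample 1 or 2 (0.052 to 0.122). Other probe sets of Pfkm gave -0.52 (adjusted p = 0.0995) and -0.26 (adjusted p = 0.341) in SCC epithelia, and 0.25 (adjusted p = 0.462) and -0.47 (adjusted p = 0.0947) in SCC fibroblasts. Pfkp and Gpi were called in no comparison of stages, with changes to SCC of 0.17 and -0.02 in epithelia and 0.73 and 0.17 in fibroblasts.

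Pfkfb4, one of the bifunctional enzymes that set the level of fructose 2,6-bisphosphate, moved in opposite directions in the 2 cell types. In epithelia its signals were 10.89, 11.25 and 11.03 in normal tissue, 9.67, 10.24 and 10.04 in dysplasia and 10.61, 9.76 and 9.31 in SCC. Every lesion sample was below every normal sample. It fell 2.11-fold (log2 change -1.07, SE 0.30, adjusted p = 0.0453) in dysplasia and 2.24-fold (log2 change -1.16, SE 0.30, adjusted p = 0.0198) in SCC. In fibroblasts the signals were 8.81, 8.71 and 8.40 in normal tissue, 8.73, 8.58 and 8.59 in dysplasia and 9.52, 9.54 and 9.97 in SCC. All SCC samples exceeded all samples of both other groups, and Pfkfb4 rose 2.05-fold (log2 change 1.03, SE 0.17, adjusted p = 0.00805) from normal and 2.06-fold (log2 change 1.04, SE 0.17, adjusted p = 0.0197) from dysplastic to SCC fibroblasts. A second, dimmer probe set of Pfkfb4 gave the same direction in epithelia, -0.90 (adjusted p = 0.0043) in dysplasia and -1.06 (adjusted p = 0.000662) in SCC, but -0.12 (adjusted p = 0.634) in SCC against normal and -0.15 (adjusted p = 0.696) in SCC against dysplastic fibroblasts, so the rise in fibroblasts rests on 1 probe set.

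The call of Pfkfb4 from normal to SCC fibroblasts held with each array left out. In epithelia it was lost without any single normal or dysplasia sample or SCC sample 2 for dysplasia (adjusted p = 0.0511 to 0.134), and without normal sample 2 or 3 or SCC sample 2 for SCC (0.0507 to 0.0663). Pfkfb3, the inducible isoenzyme with high kinase activity, was called in no comparison of stages with its main probe set (-0.09 in SCC epithelia and -0.17 in SCC fibroblasts), and a dimmer probe set of it gave -0.45 (adjusted p = 0.0418) in SCC epithelia. Without the third fibroblast samples Pfkfb3 was lower in dysplasia than in normal fibroblasts, at -1.21 (adjusted p = 0.00157). Pdk1, a kinase that inhibits pyruvate dehydrogenase, stood at -0.33 (SE 0.11, adjusted p = 0.0568) in SCC epithelia and 0.39 (SE 0.15, adjusted p = 0.1) in SCC fibroblasts, neither of them called. Its second probe set gave 0.93 (adjusted p = 0.0418) in SCC fibroblasts.

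From aldolase to lactate, 3 of 8 genes rose in SCC fibroblasts (7.82% of all probe sets were called higher). In SCC epithelia 1 of the 8 rose and 1 fell (12.6% higher and 17.3% lower), and the 2 counts were not tested against each other. Eno1, the main enolase, was at 12.004, 11.89 and 10.75 in normal, 12.27, 12.18 and 11.96 in dysplastic and 12.68, 12.77 and 12.71 in SCC fibroblasts, with normal sample 3 far below the rest. It rose 2.25-fold (log2 change 1.17, SE 0.29, adjusted p = 0.0316), and without the third samples the change was 0.78 (adjusted p = 0.00246). In epithelia Eno1 was at 12.32, 12.32 and 12.33 in normal tissue, 12.53, 12.56 and 12.57 in dysplasia and 12.68, 12.60 and 12.74 in SCC, a narrow but separated order. It rose 1.28-fold (log2 change 0.35, SE 0.09, adjusted p = 0.0203) in SCC epithelia.

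Ldha encodes the lactate dehydrogenase subunit that favours lactate formation. In fibroblasts it was at 12.41, 12.38 and 11.85 in normal tissue, 12.46, 12.41 and 12.42 in dysplasia and 13.02, 13.05 and 13.15 in SCC. The SCC samples were above all others, and Ldha rose 1.81-fold (log2 change 0.86, SE 0.16, adjusted p = 0.0136). In epithelia it was at 12.56, 12.73 and 12.64 in normal tissue and 12.84, 12.91 and 12.96 in SCC, without overlap, and the change of 0.26 (SE 0.10, adjusted p = 0.0759) was not called. Tpi1, triosephosphate isomerase, was at 11.94, 11.91 and 11.12 in normal, 11.83, 11.84 and 11.96 in dysplastic and 12.61, 12.73 and 12.61 in SCC fibroblasts and rose 1.99-fold (log2 change 0.99, SE 0.21, adjusted p = 0.0189). Without the third fibroblast samples the changes were 0.64 (adjusted p = 0.00347) for Ldha and 0.74 (adjusted p = 0.00234) for Tpi1. Aldoc, the aldolase isoform best known from brain, was at 8.30, 8.93 and 8.47 in normal, 7.40, 7.71 and 7.56 in dysplastic and 7.97, 7.76 and 7.23 in SCC epithelia. All lesion samples were below all normal samples, and Aldoc fell 2.02-fold (log2 change -1.01, SE 0.22, adjusted p = 0.0192) in dysplasia and 1.88-fold (log2 change -0.91, SE 0.22, adjusted p = 0.015) in SCC. Its change in SCC fibroblasts was -0.04 (SE 0.20, adjusted p = 0.9).

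The call of Aldoc in SCC held with each array left out and was lost in dysplasia without normal sample 2 or dysplasia sample 1 or 3 (adjusted p = 0.0549 to 0.0709). Eno1 in SCC epithelia lost its call without normal sample 1 or 3 or SCC sample 3 (0.0574 to 0.0617). In fibroblasts Eno1 lost it without normal sample 2, dysplasia sample 2 or SCC sample 1 or 2 (0.0501 to 0.107), and Ldha and Tpi1 lost it without SCC sample 1 or 2 (0.0545 to 0.0552 and 0.0711 to 0.0768). Aldoa, Pgk1 and Pgam1, which catalyse neighbouring steps, were bright in all samples and were called in no comparison of stages, with changes to SCC of -0.06, 0.01 and 0.08 in epithelia and 0.25, 0.29 and 0.34 in fibroblasts. Ldhb, the subunit that favours lactate use, stood at 0.70 (SE 0.38, adjusted p = 0.195) in SCC epithelia and -0.32 (SE 0.24, adjusted p = 0.377) in SCC fibroblasts.

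The probe set that Gapdh shares with Gapdhl10 gave 0.26 (SE 0.10, adjusted p = 0.0731) in SCC epithelia and 0.62 (SE 0.15, adjusted p = 0.0311) in SCC fibroblasts. The one that Pkm, pyruvate kinase, shares with its pseudogene Pkm-ps20 gave 0.52 (SE 0.10, adjusted p = 0.00486) and 0.85 (SE 0.22, adjusted p = 0.0348). The signal cannot be assigned to 1 of the symbols, and these probe sets are not in the counts.

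Egln3, the prolyl hydroxylase PHD3, had the lowest adjusted p of the group in dysplastic epithelia. Its signals were 10.71, 10.76 and 10.51 in normal, 9.22, 9.71 and 9.35 in dysplastic and 9.84, 9.75 and 9.65 in SCC epithelia, so all lesion samples were below all normal samples. Egln3 fell 2.35-fold (log2 change -1.23, SE 0.14, adjusted p = 0.00271) in dysplasia and 1.88-fold (log2 change -0.91, SE 0.14, adjusted p = 0.00241) in SCC, and both calls held with each array left out. In fibroblasts it was at 7.86, 7.55 and 6.92 in normal tissue, 7.58, 7.52 and 8.08 in dysplasia and 9.47, 9.31 and 8.59 in SCC, where sample 3 was the lowest of the SCC samples and still above every other fibroblast sample. It rose 3.2-fold (log2 change 1.68, SE 0.30, adjusted p = 0.0115) from normal to SCC fibroblasts, and without the third samples the change was 1.68 (adjusted p = 0.000527). This call was lost without SCC sample 1 or 2 (adjusted p = 0.0539 to 0.0544).

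Hif1a, the oxygen-regulated subunit of HIF-1, is controlled mainly at the protein level. Its RNA was at 12.38, 12.41 and 12.27 in normal, 12.78, 12.64 and 12.59 in dysplastic and 12.77, 12.86 and 12.88 in SCC epithelia, and it rose 1.39-fold (log2 change 0.48, SE 0.10, adjusted p = 0.00858) in SCC, which held with each array left out. In SCC fibroblasts its change was 0.37 (SE 0.15, adjusted p = 0.119). Epas1, the HIF-2 alpha subunit, was at 11.36, 11.35 and 11.36 in normal, 10.08, 10.77 and 10.61 in dysplastic and 10.74, 11.51 and 10.22 in SCC epithelia. The dysplasia samples were below the normal ones and the SCC samples overlapped with both, and no change was called, at -0.87 (SE 0.30, adjusted p = 0.0836) in dysplasia and -0.54 (SE 0.30, adjusted p = 0.203) in SCC. Egln1, the main oxygen sensor PHD2, was at 10.33, 10.33 and 10.36 in normal, 10.41, 10.33 and 10.29 in dysplastic and 11.01, 10.91 and 10.64 in SCC fibroblasts and rose 1.43-fold (log2 change 0.51, SE 0.13, adjusted p = 0.0321). Its second probe set gave -0.13 (adjusted p = 0.716) there and -0.82 (adjusted p = 0.0123) in SCC epithelia, where the main one gave -0.02 (SE 0.11, adjusted p = 0.903). The fibroblast call of Egln1 was lost without normal sample 1 or 2, dysplasia sample 2 or SCC sample 1 or 2 (0.0536 to 0.13).

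Among the secreted factors and stress genes, Ddit4 and Bnip3 went different ways. Ddit4, also known as REDD1, restrains mTOR under stress. In fibroblasts it was at 10.43, 10.75 and 10.39 in normal tissue, 11.22, 11.29 and 11.21 in dysplasia and 12.27, 12.31 and 11.64 in SCC, with 3 separate levels by stage. Ddit4 rose 2.93-fold (log2 change 1.55, SE 0.19, adjusted p = 0.00294) from normal to SCC, the lowest adjusted p of the group in fibroblasts, and the call held with each array left out. In epithelia it stayed between 9.81 and 10.38 in all 9 samples, with a change to SCC of -0.17 (SE 0.15, adjusted p = 0.428).

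Bnip3, a mitophagy receptor, was at 11.40, 12.09 and 11.50 in normal, 10.23, 10.83 and 10.42 in dysplastic and 11.09, 10.96 and 10.09 in SCC epithelia. All lesion samples were below all normal samples, and Bnip3 fell 2.25-fold (log2 change -1.17, SE 0.29, adjusted p = 0.032) in dysplasia and 1.93-fold (log2 change -0.95, SE 0.29, adjusted p = 0.0389) in SCC. It lost its call in dysplasia without any single normal sample or dysplasia sample 1 or 3 (adjusted p = 0.0587 to 0.108), and in SCC without any single normal sample, dysplasia sample 3 or SCC sample 3 (0.0546 to 0.127). Ndrg1, a stress and differentiation gene, was at 11.60, 12.16 and 11.45 in normal, 11.02, 11.29 and 10.97 in dysplastic and 11.74, 11.65 and 11.75 in SCC epithelia. It fell 1.56-fold (log2 change -0.65, SE 0.18, adjusted p = 0.0458) in dysplasia, and the SCC samples lay within the range of the normal ones. That call was lost without any single epithelial array except normal sample 3 (0.0533 to 0.154), and the second probe set gave -0.08 (adjusted p = 0.813).

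Vegfa, Adm, Car9 and Ankrd37 were called in no comparison of stages. Vegfa, the vessel growth factor, was at 8.63, 9.84 and 8.61 in normal and 9.99, 9.21 and 9.04 in SCC epithelia, 10.96, 10.70 and 10.92 in normal fibroblasts and 10.99, 10.60 and 11.22 in SCC fibroblasts. Normal and SCC samples overlapped in both, although a second probe set of Vegfa gave 0.75 (adjusted p = 0.03) in SCC fibroblasts. Adm, the vasodilator adrenomedullin, stood at 0.83 (SE 0.33, adjusted p = 0.0905) in SCC epithelia. Car9, carbonic anhydrase 9, a widely used hypoxia marker, lay between 6.26 and 7.29 in all 18 samples, with changes to SCC of 0.03 in epithelia and -0.37 in fibroblasts. Its mean of 6.73 and that of Ankrd37, 6.48, were near the array medians of 6.53 to 6.86. A change in so dim a signal may be missed. Ankrd37 stood at 0.59 (SE 0.20, adjusted p = 0.0548) in SCC epithelia and 0.16 (SE 0.18, adjusted p = 0.584) in SCC fibroblasts.

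All 3 collagen-modifying genes rose in SCC epithelia. Lox, lysyl oxidase, which starts collagen cross-linking, was at 2.90, 4.05 and 2.68 in normal, 5.01, 3.84 and 3.92 in dysplastic and 8.27, 11.51 and 4.57 in SCC epithelia. The SCC samples differed from each other by more than the other groups did, with sample 2 at the level of the fibroblast samples and sample 3 at that of dysplasia. Lox rose by 4.91 (SE 1.40, adjusted p = 0.0284) on the log2 scale. Its signals in normal epithelia were below every array median, and with no detection calls in the values used here no fold is given. P4ha1 and P4ha2 encode catalytic subunits of collagen prolyl 4-hydroxylase. P4ha1 was at 8.48, 7.89 and 8.61 in normal, 8.68, 8.82 and 9.11 in dysplastic and 10.12, 10.38 and 9.27 in SCC epithelia and rose 3.03-fold (log2 change 1.60, SE 0.29, adjusted p = 0.00463). P4ha2 was at 6.88, 6.75 and 6.87 in normal, 6.67, 6.63 and 6.72 in dysplastic and 7.83, 8.66 and 7.11 in SCC epithelia and rose 2.05-fold (log2 change 1.04, SE 0.31, adjusted p = 0.0357).

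In all 3 genes SCC sample 2 was the highest and SCC sample 3 the lowest of the SCC epithelia, the order of their fibroblast markers (9.40, 11.45 and 7.28 in samples 1 to 3), and the part of those cells in the rise was not tested. P4ha1 kept its call with each array left out, Lox lost it without any single normal sample or SCC sample 1 (adjusted p = 0.0539 to 0.0785), and P4ha2 without any single normal or dysplasia sample or SCC sample 1 (0.0507 to 0.0966). Another probe set of Lox gave 3.98 (adjusted p = 0.0424), and another of P4ha2 -0.30 (adjusted p = 0.105). In fibroblasts none of the 3 was called, with changes to SCC of 0.73 (SE 0.70, adjusted p = 0.495) for Lox, -0.12 (SE 0.19, adjusted p = 0.691) for P4ha1 and -1.06 (SE 0.38, adjusted p = 0.0873) for P4ha2. Without the third fibroblast samples P4ha2 was at -1.17 (adjusted p = 0.00107) and Lox at 1.23 (adjusted p = 0.00288), of opposite sign.

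**Figure D3:**
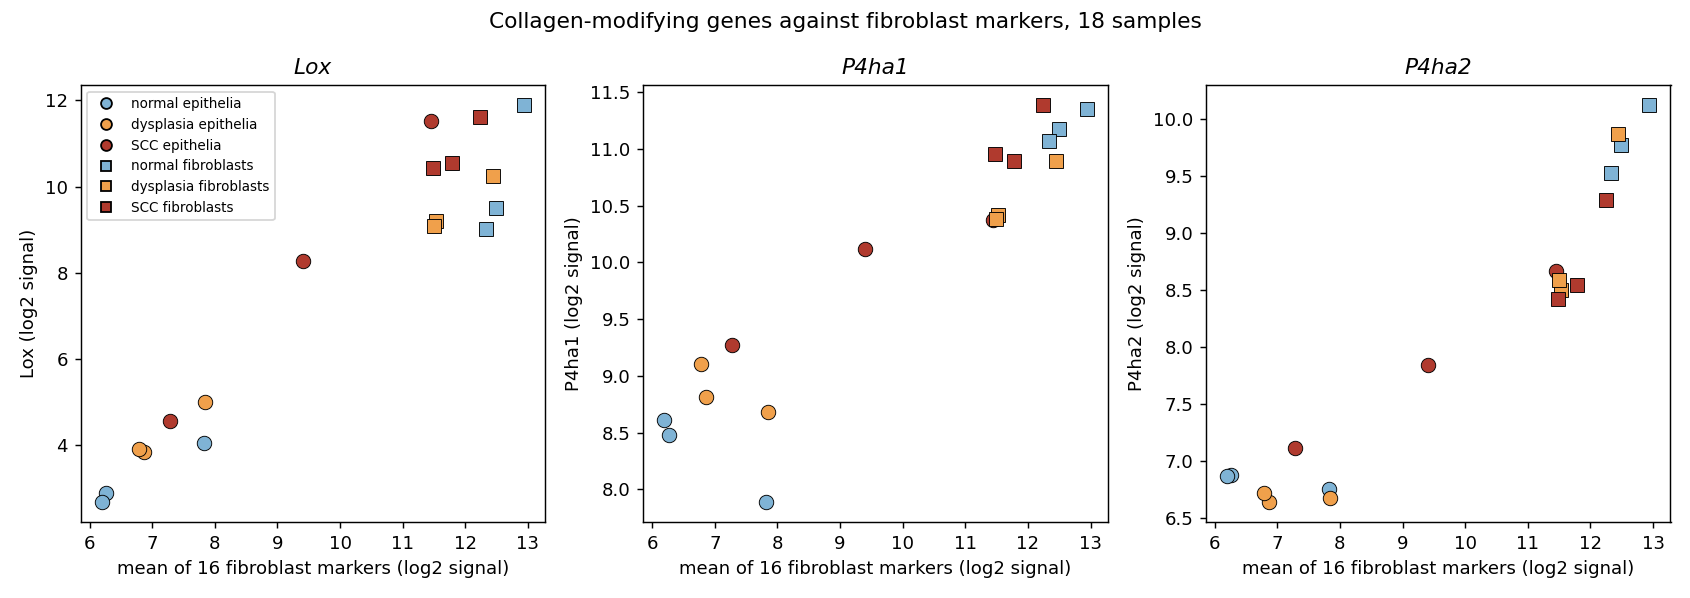
Log2 signal of Lox, P4ha1 and P4ha2 (y axes) against the mean log2 signal of 16 fibroblast markers (x axes) in the 18 samples, with circles for epithelia, squares for fibroblasts and colours for the stage. The 3 SCC epithelia lie at marker levels of 7.28, 9.40 and 11.45, and their Lox signals of 4.57, 8.27 and 11.51 follow the same order.

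From dysplastic to SCC fibroblasts Pfkfb4 was the single call, 1 of 35 genes beside 1.85% of all probe sets, and quantile normalization gave 1 higher and 1 lower. The groups did not overlap for 20 of the 35 genes with SCC higher, beside 13.5% of all probe sets, and for 2 with SCC lower, beside 11.7%. The median change over the 35 genes was 0.45 beside -0.01 over all probe sets, and 31 of the 35 changes were above 0, beside 48.2% of all. Next to Pfkfb4 the lowest adjusted p values were those of Slc16a3 at 2.19 (SE 0.46, adjusted p = 0.0516), Pfkl at 1.13 (SE 0.24, adjusted p = 0.0521) and Egln3 at 1.39 (SE 0.30, adjusted p = 0.0585), none of them called. Deviations of dysplasia and SCC fibroblasts correlated at 0.321 to 0.592 for the same number and at -0.527 to 0.352 for different numbers. With the number as a block 5 of 35 were called (Pfkfb4, Pfkl, Slc16a3 and Ddit4 higher, Ldhb lower), beside 2.73% of all probe sets. Without the third fibroblast samples 15 of 35 were called (13 higher, 2 lower), beside 16.2%. Leaving out single samples gave 2 calls without normal sample 1, 9 without normal sample 3 and 5 without SCC sample 3, and Pfkfb4 lost its call without any single dysplasia sample or SCC sample 1 or 2 (adjusted p = 0.0511 to 0.0954). Neutrophil markers rose with this step (5 of 10 called, from 8.55 to 8.71 in dysplasia to 10.11 to 10.28 in SCC), and their part in these changes was not tested.

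From dysplastic to SCC epithelia the lowest adjusted p was that of Slc16a3, at 1.02 (SE 0.16, adjusted p = 0.075). Without SCC sample 3 there were 4 calls, Slc16a3 (1.10), P4ha1 (1.38), P4ha2 (1.57) and Lox (5.64), named after their values were seen, beside 2.37% of all probe sets in that fit. In that comparison 9 of the 35 genes were higher in SCC without overlap, beside 7.18% of all probe sets, and 2 lower, beside 11.1%.

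Whether a change differed between the cell types was tested in 1 fit of all 18 arrays, as the change in epithelia minus that in fibroblasts. From normal to SCC, 10 of 35 genes differed, beside 16.5% of all probe sets. Egln3 differed by -2.59 (SE 0.35, adjusted p = 0.000319), Pfkfb4 by -2.20 (SE 0.36, adjusted p = 0.00119) and Ddit4 by -1.71 (SE 0.25, adjusted p = 0.000497). For all 3 the change was higher in fibroblasts, while Egln3 and Pfkfb4 fell in epithelia. Pdk1 (-0.72, SE 0.18, adjusted p = 0.0141), Ldha (-0.60, SE 0.18, adjusted p = 0.0371), Hk1 (-0.57, SE 0.18, adjusted p = 0.044) and Egln1 (-0.53, SE 0.16, adjusted p = 0.0355) went the same way. Hk2 differed by 1.08 (SE 0.27, adjusted p = 0.014), P4ha1 by 1.72 (SE 0.37, adjusted p = 0.00622) and P4ha2 by 2.10 (SE 0.53, adjusted p = 0.0147), with the higher change in epithelia. The transporters Slc2a1 (-0.38, SE 0.38, adjusted p = 0.524), Slc16a1 (0.22, SE 0.27, adjusted p = 0.612) and Slc16a3 (-0.80, SE 0.52, adjusted p = 0.308) gave no call for a difference between the cell types.

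From normal to dysplasia 2 of 35 genes differed, beside 4.13% of all probe sets, Hk2 by 1.47 (SE 0.27, adjusted p = 0.00894) and Egln3 by -1.52 (SE 0.35, adjusted p = 0.0272). From dysplasia to SCC none was called, beside 0.651% of all probe sets (202 called, 3995 at an unadjusted p under 0.05). Aligned on the hybridization controls, which shifted the medians of these 3 differences by 0.27 (dysplasia), -0.55 (SCC) and -0.81 (dysplasia to SCC), the counts were 1 (1 higher in epithelia), 16 (0 higher, 16 lower) and 19 (0 higher, 19 lower). Quantile normalization gave 1 higher and 2 lower in dysplasia. Without the third fibroblast samples the counts were 5, 13 and 4, beside 11.9%, 27.7% and 3.18% of all probe sets. By the rule of 2-fold before adjustment they were 6 in dysplasia (6.22%) and 5 from dysplasia to SCC (3.68%). With an array left out, Hk1 lost its call without any single normal or dysplasia epithelia, SCC epithelia 1 or 2, any normal fibroblasts or SCC fibroblasts 1 or 2 (adjusted p = 0.052 to 0.109), and Ldha without any single normal epithelia, SCC epithelia 1 or 2 or any SCC fibroblasts (0.0503 to 0.0792). Egln1 lost it without normal epithelia 2 or 3, SCC epithelia 1, normal fibroblasts 1 or 2 or SCC fibroblasts 1 or 2 (0.0502 to 0.0974), and the dysplasia call of Egln3 was lost without normal epithelia 1 or 2 or dysplasia epithelia 1 or 3 (0.0569 to 0.072). The other 8 of the 12 calls held.

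With both directions counted together, the share of the genes that differed between the cell types was near that of all probe sets at each stage. It was 65.7% in normal tissue, 54.3% in dysplasia and 37.1% in SCC. Isoenzymes of 1 family lay on different sides. In normal tissue 23 of 35 genes differed (11 higher and 12 lower in epithelia), beside 63.4% of all probe sets (35.7% higher, 27.7% lower). Egln3 was 9.31-fold higher in normal epithelia (log2 difference 3.22, SE 0.25, adjusted p = 4.3e-08) and Pfkfb4 5.33-fold higher (2.41, SE 0.26, adjusted p = 1.03e-06), followed by Pfkp at 1.23 (SE 0.28, adjusted p = 0.00133) and Pdk1 at 1.00 (SE 0.13, adjusted p = 6.89e-06). In contrast, Slc2a3 was lower in normal epithelia, where its signals were below every array median, than in normal fibroblasts (log2 difference -3.48, SE 0.39, adjusted p = 1.64e-06), and Pfkfb3 was 5.26-fold lower (-2.39, SE 0.33, adjusted p = 1.55e-05). Lox (-6.93), P4ha2 (-2.98), P4ha1 (-2.88), Ldhb (-2.02), Vegfa (-1.84), Adm (-1.56), Ankrd37 (-1.38) and Epas1 (-1.08) were also lower in epithelia.

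In dysplasia 19 of 35 differed (7 higher and 12 lower in epithelia), beside 50.4% of all probe sets (27.4% higher, 23% lower). In SCC 13 of 35 differed (1 higher and 12 lower), beside 38.3% (18.1% higher, 20.1% lower). By direction the share in SCC was thus not near that of all probe sets, at 2.86% higher and 34.3% lower. The gene higher in SCC epithelia was Hk2, at 1.03 (SE 0.19, adjusted p = 0.000631). The difference of Egln3 was 3.22 in normal tissue, 1.70 in dysplasia and 0.63 in SCC, the last not called (adjusted p = 0.0575). That of Pfkfb4 was 2.41, 1.35 and 0.22 at the same stages. Slc2a3 stayed lower in epithelia throughout (-3.48, -3.37 and -3.44), and Ddit4 went from -0.26 (SE 0.18, adjusted p = 0.216) in normal tissue to -1.97 (SE 0.18, adjusted p = 9.58e-07) in SCC. The 2 cell types were isolated differently, and alignment on the hybridization controls shifted the median of all probe sets between them by 0.86, 1.12 and 0.31. Under it the counts higher and lower in epithelia were 22 and 7 in normal tissue, 23 and 4 in dysplasia, and 5 and 8 in SCC (6 and 9 under quantile normalization), with the sign turned for Slc16a1 in normal tissue and for Pfkm, Vegfa, Ndrg1, Ddit4 and Ankrd37 in dysplasia. With each array left out in turn, 19 of the 23 calls in normal tissue, 14 of 19 in dysplasia and 10 of 13 in SCC were kept. In normal tissue the others were Tpi1 and Pgam1 (without epithelia 2 or fibroblasts 3), Slc16a1 (without epithelia 2 or fibroblasts 1) and Slc16a3 (without fibroblasts 1 or 2), with adjusted p of 0.0699 to 0.166. In dysplasia they were Pfkm, Pfkp, Pgam1, Vegfa and Ndrg1 (0.05 to 0.243), where Vegfa was lost without fibroblasts 3 only, and in SCC Gpi, Ldhb and Egln1 (0.0508 to 0.11), each lost without epithelia 1 or fibroblasts 2 among others. By the rule of 2-fold before adjustment 14 genes passed in normal tissue (30.3% of all probe sets) and 12 in dysplasia (22.1%).

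**Figure D4:**
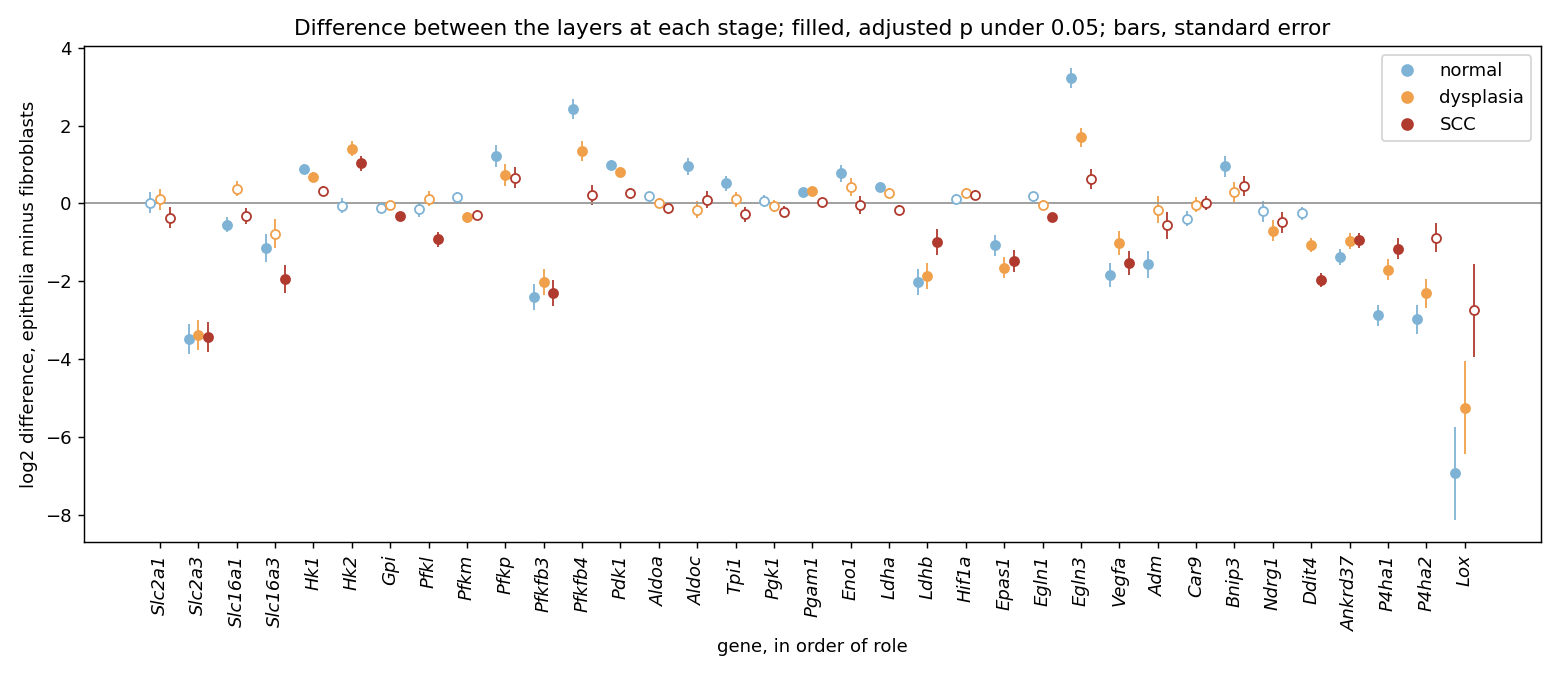
Log2 difference between epithelia and fibroblasts of the same stage (y axis, above 0 means higher in epithelia) for the 35 genes (x axis), with the standard error as bars, colours for the stage and filled points for an adjusted p under 0.05. The differences of Egln3 (3.22, 1.70 and 0.63) and Pfkfb4 are widest in normal tissue, while that of Slc2a3 lies near the same level at each stage.

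Genes next to these in the same pathways were read from 2 further lists. Of 45 other genes of glycolysis and its branches, 8 rose and 4 fell in dysplastic epithelia (median change 0.03), 12 of 45 beside 14.5% of all probe sets, and 11 rose and 7 fell in SCC epithelia (median 0.05), 18 of 45 beside 29.9%. In SCC epithelia the lowest adjusted p values were those of Pgls (-1.40, adjusted p = 0.00039), a pentose phosphate enzyme, G6pc3 (1.08, adjusted p = 0.000986), a glucose 6-phosphatase, Gpd2 (0.95, adjusted p = 0.00101), of the glycerol phosphate shuttle, and Bpgm (0.99, adjusted p = 0.00208), which makes 2,3-bisphosphoglycerate. In SCC fibroblasts 3 of 45 were called, a smaller share than the 15.2% of all probe sets, Rpe (0.68, adjusted p = 0.02), Pdhx (0.71, adjusted p = 0.0395) and Slc2a2 (-0.61, adjusted p = 0.0387).

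Of 44 other genes of the hypoxia response, none rose and 6 fell in dysplastic epithelia, beside 14.5% of all probe sets called, among them Bnip3l (-0.83, adjusted p = 0.0151), a mitophagy receptor like Bnip3, Siah2 (-0.63, adjusted p = 0.0198), Hmox1 (-0.98, adjusted p = 0.0234) and Bhlhe40 (-0.50, adjusted p = 0.0299). In SCC epithelia 7 rose and 11 fell, 18 of 44 beside 29.9% of all probe sets, with Rora (-1.08, adjusted p = 0.00165), Cited2 (-0.67, adjusted p = 0.00265), Bnip3l (-0.86, adjusted p = 0.00605) and Bhlhe40 (-0.62, adjusted p = 0.00618) at the lowest adjusted p. In SCC fibroblasts 5 rose and 2 fell, 7 of 44 beside 15.2%, among them Arnt2 (-0.83, adjusted p = 0.0134), a HIF beta subunit, Fam162a (0.65, adjusted p = 0.0182), Ero1a (0.99, adjusted p = 0.0265) and Tfrc (1.38, adjusted p = 0.0272), the transferrin receptor. The medians of this list were -0.09, -0.04 and -0.10 in these comparisons. From dysplasia to SCC fibroblasts only Hmox1 (1.30, adjusted p = 0.0196) was called, and from normal to dysplastic fibroblasts and from dysplastic to SCC epithelia no gene of either list.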

How the data were processed

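Expression was measured on 18 Affymetrix Rat Genome 230 2.0 arrays, 3 in each of 6 groups taken from the sample titles, each array holding RNA pooled from 3 rats. The authors deposited 1 linear intensity per probe set and array, already background-corrected, summarised and normalized. Per the submitters' processing notes, Affymetrix Expression Console and RMA were used, in versions not given in the sources used here, and a remaining effect of that normalization on global shifts between cell types cannot be removed. The number of arrays limits the precision. No value column was left unused (0).

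Intensities were taken to log2, 57 control probe sets were left out, and 31042 were tested with limma 3.58.1 in R 4.3.3. Of all probe sets, 20826 named 1 gene, 436 several and 9780 none. Comparisons of stages were fitted on the 9 arrays of a cell type, and differences between cell types on all 18. P-values were adjusted by the Benjamini-Hochberg method over all probe sets, and a call is an adjusted p under 0.05. An exact permutation test of 3 against 3 cannot go below 0.1. The scripts were tested on simulated data. Sequences came from the RefSeq promoter table of GRCr8.

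The genes and lists were chosen with earlier results of these data known. Genes were named by role: those called between stages with the value in every sample and, for up to 10 per comparison by adjusted p (more were given here), fold change and error, and other listed genes with up to 4 per list. Deviations of same-numbered samples correlated most between dysplasia and SCC fibroblasts, at 0.321 to 0.592, and those of other numbers there reached 0.352. There 4 of 6 arrays correlated best with their own number, against 5 of 6 between normal and either lesion stage in fibroblasts. The labels state no pairing, and the third samples of both lesion stages shared low epithelial and high macrophage markers. Alternatives were a filter on dim probe sets (mean log2 signal above 7), quantile normalization, alignment on hybridization controls, the mean over a gene's probe sets, the replicate block, another variance prior, a 2-fold change with p before adjustment, 1 fit of all arrays, the methods' t-test, each array left out, and, added after seeing the data, the third fibroblast samples left out.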

Additional observations from a re-analysis of the deposited data

Results flagged for a closer look

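The change of 10 genes from normal tissue to SCC and of 2 genes from normal tissue to dysplasia differed between epithelia and fibroblasts by the test of the difference itself (limma, 18 arrays, adjusted over all probe sets). From normal to SCC the difference, epithelia minus fibroblasts on the log2 scale, was -2.59 for Egln3 (adjusted p = 0.000319), -2.20 for Pfkfb4 (0.00119), -1.71 for Ddit4 (0.000497), -0.72 for Pdk1 (0.0141), -0.60 for Ldha (0.0371), -0.57 for Hk1 (0.044) and -0.53 for Egln1 (0.0355). It was 1.08 for Hk2 (0.014), 1.72 for P4ha1 (0.00622) and 2.10 for P4ha2 (0.0147). From normal to dysplasia it was 1.47 for Hk2 (0.00894) and -1.52 for Egln3 (0.0272). Egln3 and Pfkfb4 were called in both cell types with opposite signs, while for Ddit4, Ldha, Egln1, Hk1, Hk2, P4ha1 and P4ha2 a change to SCC was called in 1 cell type, and for Pdk1 in neither. Second probe sets did not show the rise of Pfkfb4 and Egln1 in SCC fibroblasts, nor the fall of Hk1 and the rise of P4ha2 in SCC epithelia. The calls of Hk1, Ldha and Egln1 to SCC and of Egln3 to dysplasia were lost without some single arrays. Aligned on hybridization controls, 0 genes were higher and 16 lower for the difference to SCC.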

How the results depend on the processing

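Counts of the 35 genes called are given here against those reported, and the cause of each shift was not tested. Where the text gives no share of all probe sets under the same setting, a count is not read as a result about these genes. By the rule of 2-fold and p before adjustment the counts were 5 for dysplasia and 8 for SCC against normal epithelia, 4 for SCC against dysplastic epithelia, 7 for SCC against normal and 5 for SCC against dysplastic fibroblasts, 6 and 5 for the differences between cell types to dysplasia and from dysplasia to SCC, and 14 and 12 between the cell types in normal tissue and dysplasia. The methods' t-test gave 2 and 6 for dysplasia and SCC against normal epithelia, 0 and 3 for SCC against normal and dysplastic fibroblasts. For SCC against dysplastic fibroblasts (1 reported), the count was 5 without dim probe sets, 2 with quantile normalization and 2 with the mean over probe sets. It was 3 with the other variance prior, 10 in 1 fit of all arrays and 15 without the third samples (16.2% of all probe sets). Aligned on hybridization controls, which moved the median of all probe sets there by 0.72, it was 27. The other variance prior gave 1 for SCC against dysplastic epithelia, and 1 fit of all arrays 1 for dysplasia against normal fibroblasts. Alignment gave 1, 16 and 19 for the differences between cell types to dysplasia, to SCC and from dysplasia to SCC. It shifted the medians of all probe sets there by 0.27, -0.55 and -0.81. The mean over probe sets gave 4 for the difference to dysplasia. Without the third fibroblast samples, chosen after seeing the data, the counts were 10 for dysplasia and 21 for SCC against normal fibroblasts, and 5 and 4 for the differences to dysplasia and from dysplasia to SCC.

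The replicate block gave 5 for SCC against dysplastic fibroblasts, where same-numbered samples correlated most. Elsewhere the block gave 1 for dysplasia against normal fibroblasts (4.67% of all probe sets), and 5 and 1 for the differences to dysplasia and from dysplasia to SCC (7.12% and 0.731%). Other counts moved by less than 1.5 times under the block. With each array left out the counts ran from 2 to 9 and 10 to 15 for dysplasia and SCC against normal epithelia, 0 to 4 for SCC against dysplastic epithelia, 0 to 0, 2 to 14 and 0 to 9 for dysplasia against normal, SCC against normal and SCC against dysplastic fibroblasts, 1 to 4, 7 to 11 and 0 to 2 for the differences to dysplasia, to SCC and from dysplasia to SCC, and 21 to 23, 14 to 23 and 10 to 17 between cell types in normal tissue, dysplasia and SCC. The sign turned under alignment for Pfkm in SCC against normal fibroblasts (0.14), and between cell types for Slc16a1 in normal tissue (0.31) and Pfkm (0.77), Vegfa (0.10), Ndrg1 (0.42), Ddit4 (0.059) and Ankrd37 (0.16) in dysplasia. With the mean over probe sets it turned for Slc16a1 in normal tissue (0.069), Pfkm in dysplasia (0.15) and Egln1 in SCC (0.69).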
